A study of Drosophila melanogaster with 6 samples.

Results

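Glutathione S-transferases (GSTs) were described across 6 RNA sequencing libraries of whole Drosophila melanogaster larvae. Members were the entries of the expression table whose symbol is Gst followed by D, E, O, S, T or Z and a digit. This chose 35 of 15741 entries in 6 classes by symbol alone, but the rule was set with earlier results of these data known. The classes held 11 genes in Delta (GstD), 14 in Epsilon (GstE), 3 in Omega (GstO), 1 in Sigma (GstS), 4 in Theta (GstT) and 2 in Zeta (GstZ).

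GSTs join the tripeptide glutathione to electrophilic compounds, which makes them more soluble and easier to excrete. Delta and Epsilon are the classes that expanded in insects, and several of their enzymes act on plant toxins, on lipid peroxidation products and on insecticides. The other classes are shared with vertebrates and include enzymes of ordinary metabolism. Gut, fat body and Malpighian tubule are the tissues best known for GST expression in the larva.

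The libraries came from wandering larvae raised at 25 °C. Per the labels more than 20 animals were pooled for each, and each of 6 groups has 1 library. The groups were Cmi RNAi depletion, Trr RNAi depletion and wild type, each at clear gut (the later part of wandering) and at blue gut (the earlier part, when the gut still shows dye from the food). Both depletions used a short hairpin RNA under the GawB69B Gal4 driver, an enhancer trap known for activity in the epidermis and imaginal discs. The sources used here do not give the wild-type stock or whether it carried the driver. Cmi (gene Lpt) and Trr are subunits of a complex that methylates histone H3, and the study asked what their loss does to the transcriptome.

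The libraries held 23.1 to 25.0 M reads on genes, with 34457 to 50088 reads on the 35 GST genes. Values are RPKM, that is reads scaled for gene length and for the reads on all genes of the library. Lpt measured 5.11 and 4.44 RPKM in Cmi depletion at clear gut and blue gut, against 6.66 and 5.57 RPKM in wild type. The gene trr measured 4.76 RPKM in the library labelled Trr depletion against 6.19 RPKM in wild type at clear gut, but 3.60 against 2.92 RPKM at blue gut. The blue gut value goes against the label, so these libraries are called by their label throughout. A gene was tested where its mean over the 6 libraries was at least 1 RPKM, which kept 11467 entries and 30 members. The limma fit held genotype and stage as additive terms on log2(RPKM + 1), a scale that understates the change of low genes. Adjusted p-values are two-sided and Benjamini-Hochberg adjusted over all 11467 genes, and "rose" and "fell" are used of genes under 0.05. With no replicate, the error of the fit measures how far the effects of genotype differ between stages. It does not measure the spread between pools of animals, which is unknown. Ratios between single libraries carry 95% exact intervals that cover counting error only.

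Most of the family sat in tandem arrays. All 11 GstD genes lay on chromosome 3R between 12364776 and 12385624 of Release 6 (dm6), a stretch of 20.8 kb, with GstD10, GstD9 and GstD1 on the minus strand and the other 8 on the plus strand. A stretch of 13.2 kb on 2R, from 18396638 to 18409835, held 10 of the 14 GstE genes, GstE10 on the minus strand and GstE1 to GstE9 on the plus strand. GstE11 to GstE14 lay elsewhere on the same arm. The 3 GstO genes were neighbours on 3L (8518885 to 8524866), as were GstZ1 and GstZ2 on 3R (9455517 to 9460652) and GstT1 and GstT2 on 2R (9605988 to 9608350). GstT3 and GstT4 lay apart on X, and GstS1 stood alone on 2R (17093246 to 17099501, minus strand). The annotation gave 16 members a single block of exons, 9 of them in the GstE array and 7 in the GstD array.

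The recovered reads bear on how firmly each gene can be read. In 28 members every recovered value was a whole number of reads, to within 0.1 of a read. GstS1, GstE8, GstZ1, GstD5 and GstT3 held values off whole reads in 3 or more libraries, GstS1 and GstE8 in all 6. Such values can arise where a read is divided between genes, which was not tested, and none of these 5 genes overlaps another annotated gene. Their levels are treated as uncertain. The annotation placed 7 members over another gene on the opposite strand. GstE10 and GstE1 overlap by 127 bases, and the sources used here do not say whether counting used strand. The length in the table lay within 5% of the annotated exons for 22 members. It was 2.54 times the annotated length for GstE9, 1.83 times for GstD6 and 1.72 times for GstO1, and 0.535 times for GstO2. As a divisor, this lowers or raises the RPKM of these genes against other genes, but cancels in ratios of 1 gene between libraries. The annotation behind the lengths is not known, so reads of other sequence may also have been counted for these genes. Such reads could affect their ratios, which was not tested.

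Levels spanned more than 3 orders of magnitude within the family. GstD1, a Delta enzyme known to metabolise DDT and widely used as a reporter of the oxidative stress factor CncC, was the highest member in 5 of 6 libraries. It measured 447, 245 and 237 RPKM at clear gut in Cmi depletion, in the library labelled Trr depletion and in wild type, against 265, 357 and 406 RPKM at blue gut. In wild type at clear gut, GstO3 led instead. The 3 highest members together made up 45.6% to 60.0% of the family's summed RPKM. Next by mean level came GstO3 with 181 RPKM, GstE12 with 161 RPKM, GstT4 with 127 RPKM and GstS1 with 92.5 RPKM.

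At the low end, 5 members had means under 1 RPKM and were not tested. GstE4 had 1 to 3 reads in every library. GstD11 had 0 reads in wild type at clear gut, where 3 reads would be 0.118 RPKM, and 1 to 6 reads elsewhere. GstD5 had 0 reads in the blue gut library labelled Trr depletion, where 3 reads would be 0.15 RPKM, and 1.5 to 11.5 reads elsewhere. These genes were barely detected at this depth. GstD8 had 4 to 31 reads. GstD6 had 3, 8 and 5 reads at clear gut in Cmi depletion, in the library labelled Trr depletion and in wild type, against 7, 15 and 150 reads at blue gut. It thus stood out in 1 library, wild type at blue gut. The filter passed between GstD6 and GstD8, with means of 0.946 and 0.886 RPKM, and GstE14 and GstD7, with means of 1.57 and 1.80 RPKM.

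**Figure D1:**
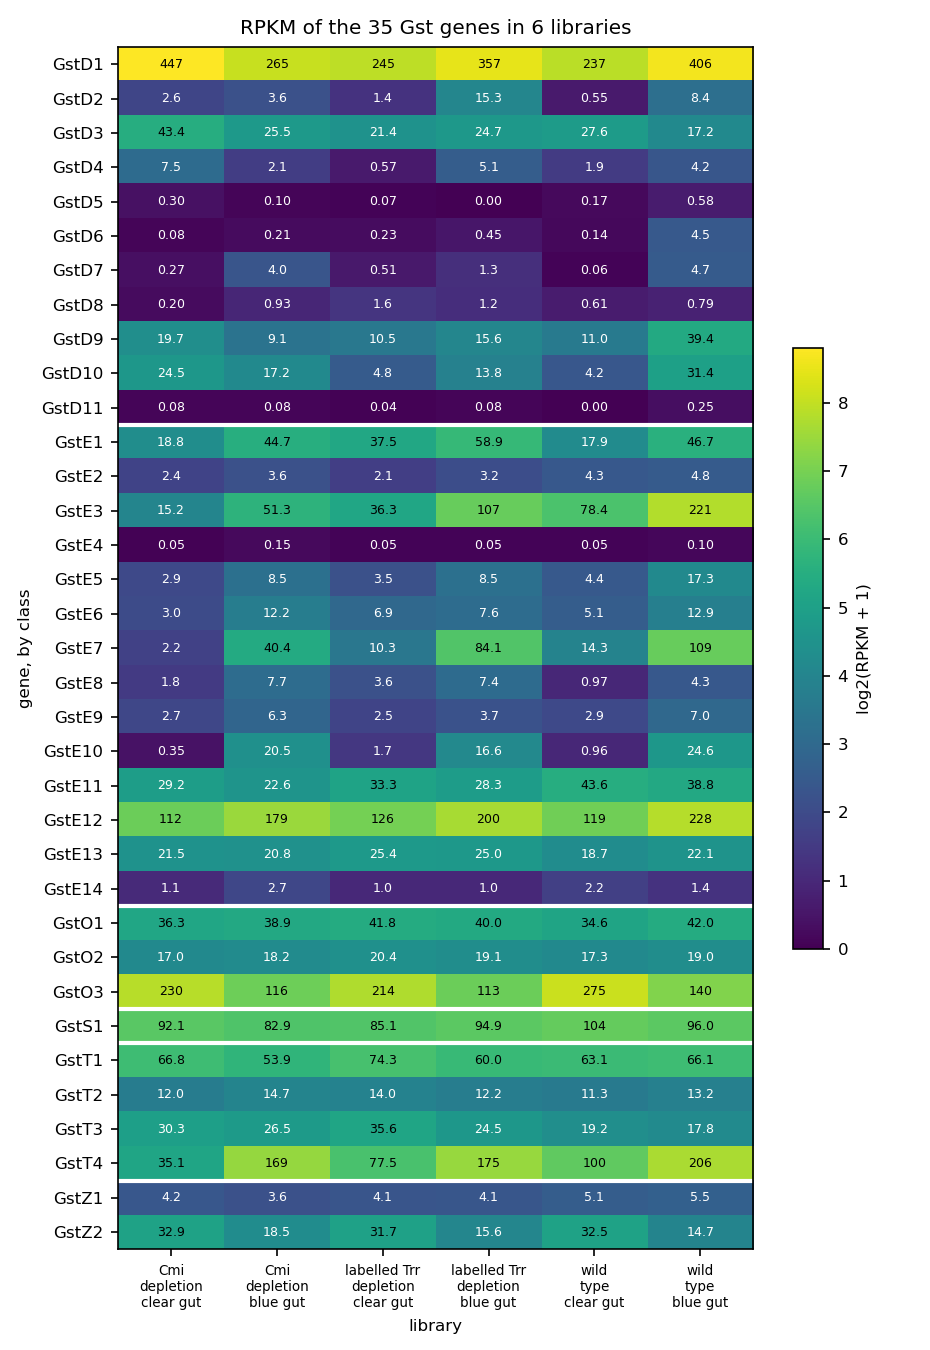
Heat map of log2(RPKM + 1), colour, with RPKM printed in each cell, for the 35 GST genes (down, by class) in 6 libraries (across). GstD1, GstO3, GstE12, GstT4 and GstS1 form the bright rows, and most GstE rows are darker at clear gut than at blue gut.

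The makeup of the family by class differed between stages. In summed RPKM, Epsilon made up 16.2%, 24.7% and 24.8% of the family at clear gut in Cmi depletion, in the library labelled Trr depletion and in wild type, against 32.6%, 35.7% and 39.3% at blue gut. Omega made up 21.5% to 25.99% at clear gut and 10.7% to 13.4% at blue gut, of which GstO3 alone made up 17.5% to 21.9% and 7.29% to 8.996%. The groups of 3 libraries did not overlap for either class, nor did they for Sigma and Zeta. Sigma made up 6.999% to 8.26% at clear gut and 5.12% to 6.42% at blue gut, and Zeta 2.82% to 3.05% and 1.08% to 1.71%. The shares are parts of 1 sum, so a lower share of 1 class raises those of others. The RPKM of GstS1, the only Sigma gene, overlapped between stages. Delta made up 41.5% in Cmi depletion at clear gut and 22.5% to 28.1% in the other 5 libraries, of which GstD1 alone made up 34.0% and 18.9% to 23.1%. The summed RPKM of the whole family was 1316, 1174 and 1258 at clear gut, against 1290, 1544 and 1876 at blue gut, in the same order of genotypes.

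Clear gut was compared with blue gut in all 3 genotypes, which asks how the family differs between the earlier and later part of wandering. Of 30 tested members, 10 fell and 2 rose at clear gut. Over all genes tested, 11.1% fell and 24.2% rose. At an unadjusted p under 0.05, 12 members were lower and 2 higher, where 46.9% of all genes passed in either direction. The members that fell were GstD7, 8 GstE genes and GstT4, and those that rose were GstO3 and GstZ2. The median log2 change of the tested members was -0.38, against 0.15 over all genes tested. All 3 clear gut libraries lay below all 3 blue gut libraries for 11 of 30 members, against 14% of all genes, and above them for 2 of 30, against 38.5% of all genes. Counts of 2-fold differences, here and between genotypes, are on the log2(RPKM + 1) scale, where low genes pass less often than their RPKM ratios would. Within single genotypes, members at least 2-fold lower at clear gut on that scale numbered 9 of 30 in Cmi depletion, 8 in the libraries labelled Trr depletion and 13 in wild type, against 10.4%, 6.75% and 9.24% of all genes. Members at least 2-fold higher on it numbered 2, 0 and 1, against 8.68%, 6.9% and 14.8%.

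Epsilon held most of the genes that fell. In the array on 2R, 7 of 9 tested genes fell (GstE1, GstE3, GstE5, GstE7, GstE8, GstE9 and GstE10), with a median log2 change of -1.31. Outside the array, 1 of 4 fell, with a median of -0.10. Summed over the array, RPKM at clear gut was 0.253, 0.351 and 0.289 times that at blue gut in Cmi depletion, in the libraries labelled Trr depletion and in wild type.

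GstE10 and GstE7 fell furthest. GstE10 measured 0.353, 1.71 and 0.959 RPKM at clear gut in Cmi depletion, in the library labelled Trr depletion and in wild type, against 20.5, 16.6 and 24.6 RPKM at blue gut. Every clear gut library was thus below every blue gut library, with a log2 change of -3.47 (SE 0.28, limma adjusted p = 0.00380). GstE10 had only 8 to 37 reads per library at clear gut. GstE7 measured 2.23, 10.3 and 14.3 RPKM at clear gut, against 40.4, 84.1 and 109 RPKM at blue gut, with a log2 change of -3.15 (SE 0.20, limma adjusted p = 0.00300). Its groups did not overlap either, and within both stages Cmi depletion was lowest and wild type highest.

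GstE3 had the highest mean of the array over the 6 libraries, though GstE1 exceeded it at clear gut in Cmi depletion and in the library labelled Trr depletion. It had 15.2, 36.3 and 78.4 RPKM at clear gut in Cmi depletion, in the library labelled Trr depletion and in wild type, against 51.3, 107 and 221 RPKM at blue gut. The groups overlapped, since wild type at clear gut exceeded Cmi depletion at blue gut, but each genotype was lower at clear gut. Its log2 change was -1.57 (SE 0.11, limma adjusted p = 0.00317). GstE1 measured 18.8, 37.5 and 17.9 RPKM at clear gut, against 44.7, 58.9 and 46.7 RPKM at blue gut, a log2 change of -1.06 (SE 0.17, limma adjusted p = 0.0142). The groups did not overlap, and the library labelled Trr depletion was the highest at both stages.

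Lower in level, GstE5 measured 2.88, 3.53 and 4.44 RPKM at clear gut in the same order of genotypes, against 8.53, 8.53 and 17.3 RPKM at blue gut (log2 change -1.37, SE 0.18, limma adjusted p = 0.00881). GstE9 measured 2.67, 2.47 and 2.86 RPKM, against 6.30, 3.71 and 6.96 RPKM (log2 change -0.83, SE 0.18, limma adjusted p = 0.0274). GstE8, whose recovered reads were not whole, measured 1.84, 3.56 and 0.969 RPKM, against 7.68, 7.44 and 4.31 RPKM (log2 change -1.31, SE 0.19, limma adjusted p = 0.0113). None of these 3 genes had overlapping groups. In the array, GstE6 and GstE2 did not pass, with log2 changes of -1.01 (limma adjusted p = 0.0709) and -0.34 (limma adjusted p = 0.147). GstE6 was lower at clear gut in all 3 genotypes, but measured 6.86 against 7.60 RPKM in the libraries labelled Trr depletion.

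GstE12, which lies outside the array (2R, 24766718 to 24768172, minus strand), was the highest Epsilon gene. It measured 112, 126 and 119 RPKM at clear gut in Cmi depletion, in the library labelled Trr depletion and in wild type, against 179, 200 and 228 RPKM at blue gut. The groups did not overlap, and the log2 change was -0.76 (SE 0.12, limma adjusted p = 0.0124). GstE11, GstE13 and GstE14 had log2 changes of 0.25, -0.06 and -0.14 and did not pass. GstE14, also called noppera-bo, acts in ecdysteroid synthesis in the prothoracic gland. It measured 1.09, 1.02 and 2.18 RPKM at clear gut, against 2.69, 1.01 and 1.44 RPKM at blue gut, on 24 to 65 reads, with no common direction.

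**Figure D2:**
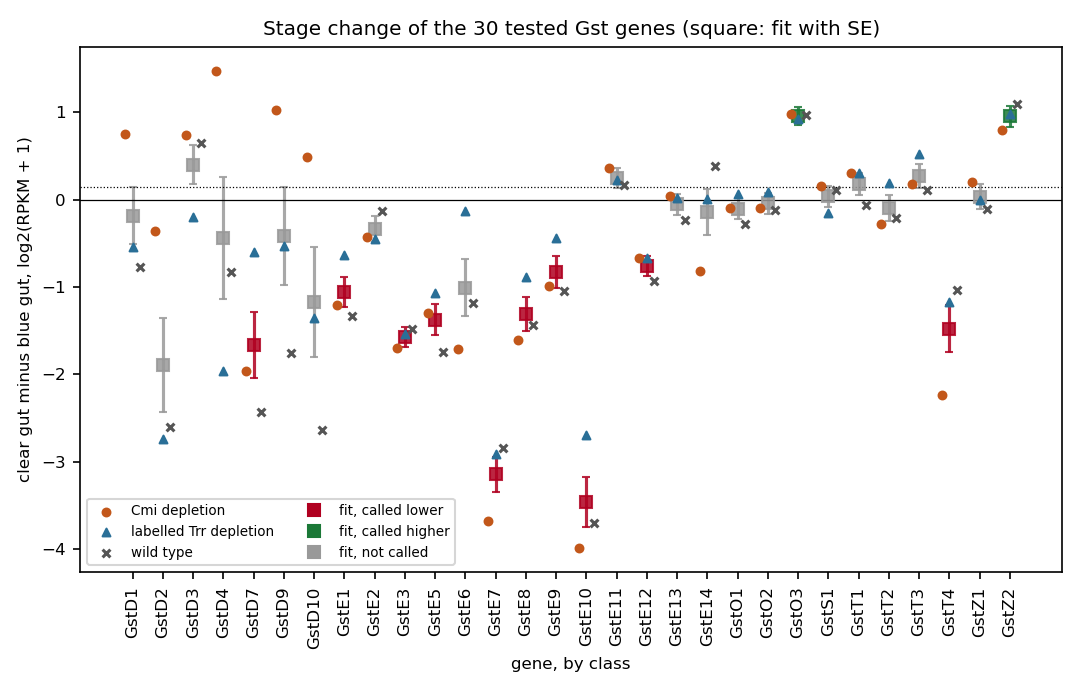
Difference between clear gut and blue gut on log2(RPKM + 1) for the 30 tested GST genes, by class. Squares are the limma estimate with its SE (red, fell; green, rose; grey, not called), small symbols are the differences within each genotype, and the dotted line is the median of all genes (0.15). GstE7 and GstE10 lie lowest, and the GstD genes show the widest spread between genotypes.

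In the classes shared with vertebrates, 3 genes changed. GstT4 (X, 13404749 to 13409323, plus strand), the Theta gene with the highest mean over the 6 libraries, measured 35.1, 77.5 and 100 RPKM at clear gut in Cmi depletion, in the library labelled Trr depletion and in wild type, against 169, 175 and 206 RPKM at blue gut. At clear gut in Cmi depletion it lay below GstT1, which had 66.8 RPKM. The groups did not overlap, and GstT4 fell by 1.48 on the log2 scale (SE 0.27, limma adjusted p = 0.0173). GstT1, GstT2 and GstT3 had log2 changes of 0.18, -0.10 and 0.27 and did not pass.

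GstO3 (3L, 8518885 to 8520295, plus strand) rose. Omega GSTs carry a cysteine in place of the usual catalytic residue and act as thiol transferases and dehydroascorbate reductases. GstO3 measured 230, 214 and 275 RPKM at clear gut, against 116, 113 and 140 RPKM at blue gut, in the same order of genotypes. Its stage ratio was close to 2 in each genotype, at 1.98 (1.89 to 2.08), 1.90 (1.81 to 1.998) and 1.96 (1.87 to 2.05), and the log2 change was 0.96 (SE 0.10, limma adjusted p = 0.00587). GstO1 and GstO2, its neighbours, had log2 changes of -0.10 and -0.04 and did not pass.

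GstZ2 (3R, 9456815 to 9460652, minus strand) rose as well. Zeta GSTs are maleylacetoacetate isomerases, which act in the breakdown of tyrosine. GstZ2 measured 32.9, 31.7 and 32.5 RPKM at clear gut, against 18.5, 15.6 and 14.7 RPKM at blue gut, with a log2 change of 0.96 (SE 0.12, limma adjusted p = 0.00814). The groups did not overlap. GstZ1, whose recovered reads were not all whole, measured 4.06 to 5.08 RPKM at clear gut and 3.58 to 5.53 RPKM at blue gut, with overlapping groups.

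GstS1, known for acting on the lipid peroxidation product 4-hydroxynonenal, measured 92.1, 85.1 and 104 RPKM at clear gut, against 82.9, 94.9 and 96.0 RPKM at blue gut. The groups overlapped and the log2 change was 0.04 (SE 0.12, limma adjusted p = 0.866).

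Delta differed most between genotypes in its stage difference. Of 7 tested GstD genes, 1 fell: GstD7, which measured 0.272, 0.512 and 0.056 RPKM at clear gut in Cmi depletion, in the library labelled Trr depletion and in wild type, against 3.98, 1.28 and 4.71 RPKM at blue gut. This gene passed the filter through its blue gut values, and its clear gut values rest on 5, 9 and 1 reads. Its log2 change was -1.67 (SE 0.38, limma adjusted p = 0.0302), and its groups did not overlap.

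GstD1, GstD9, GstD10 and GstD4 were higher at clear gut in Cmi depletion and lower at clear gut in the other genotypes. For GstD1 (3R, 12367817 to 12369268, minus strand) the ratio of clear gut to blue gut was 1.69 (1.64 to 1.74) in Cmi depletion, 0.686 (0.665 to 0.708) in the libraries labelled Trr depletion and 0.584 (0.567 to 0.603) in wild type. For GstD10 these ratios were 1.43 (1.25 to 1.64), 0.346 (0.272 to 0.436) and 0.133 (0.105 to 0.167). As deposited, the counting intervals of Cmi depletion and wild type lay on opposite sides of 1 for both genes. The size factors of median-ratio scaling were 1.148 and 0.9018 for Cmi depletion at clear gut and blue gut. With that scaling the GstD10 ratio in Cmi depletion would stay above 1, but its interval would include 1.

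GstD9 measured 19.7, 10.5 and 11.0 RPKM at clear gut in Cmi depletion, in the library labelled Trr depletion and in wild type, against 9.11, 15.6 and 39.4 RPKM at blue gut. Its stage ratios were 2.16 (1.80 to 2.60), 0.671 (0.558 to 0.805) and 0.278 (0.238 to 0.324). GstD4 had 139, 10 and 34 reads at clear gut, against 36, 88 and 71 reads at blue gut, and stage ratios of 3.64 (2.51 to 5.41), 0.111 (0.0513 to 0.213) and 0.458 (0.295 to 0.698). Both genes repeat the directions seen for GstD1.

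GstD2 and GstD3 behaved otherwise. GstD2 measured 2.59, 1.44 and 0.548 RPKM at clear gut, against 3.60, 15.3 and 8.38 RPKM at blue gut, lower in each genotype, though in Cmi depletion its ratio of 0.722 had an interval that included 1 (0.487 to 1.06). GstD3 measured 43.4, 21.4 and 27.6 RPKM at clear gut, against 25.5, 24.7 and 17.2 RPKM at blue gut, higher at clear gut in Cmi depletion and wild type only.

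**Figure D3:**
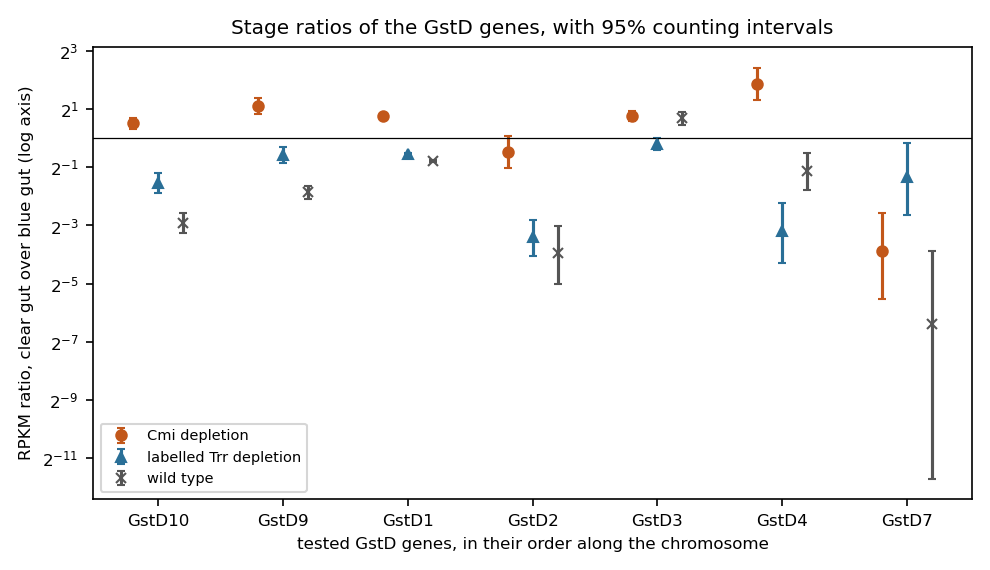
Ratio of clear gut to blue gut RPKM (log axis) for the 7 tested GstD genes in their order along chromosome 3R, with 95% counting intervals, in Cmi depletion (circles), the libraries labelled Trr depletion (triangles) and wild type (crosses). Circles lie above 1 for GstD10, GstD9, GstD1, GstD3 and GstD4, while triangles and crosses lie below 1 for all but GstD3 in wild type.

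Summed over the class, Delta RPKM at clear gut was 1.67 times that at blue gut in Cmi depletion, 0.658 times in the libraries labelled Trr depletion and 0.548 times in wild type. These sums are mostly GstD1, which in Cmi depletion had 447 of 546 RPKM at clear gut and 265 of 328 RPKM at blue gut. No other class crossed 1 in this way between Cmi depletion and wild type, with ratios of 0.508 and 0.423 for Epsilon, 1.64 and 1.62 for Omega, 0.546 and 0.640 for Theta, 1.68 and 1.86 for Zeta, and 1.11 and 1.08 for Sigma. With median-ratio scaling the Delta ratios were 1.31, 0.588 and 0.486, and those of Sigma were below 1 in all 3 genotypes (0.873, 0.801 and 0.961). A stage difference above 0 in Cmi depletion and below 0 in wild type was found in 7 of 30 tested members and in 21.6% of all genes, which is near the background. By a size rule set after these values were seen, the log2 stage difference in Cmi depletion exceeded that in wild type by at least 1 in 5 of 30 members, all in Delta, against 5.82% of all genes. It did so by at least 2 in 4 members (GstD2, GstD4, GstD9 and GstD10), against 0.253% of all genes. It fell short by at least 1 in 2 members (GstE14 and GstT4), against 5.31%. For the libraries labelled Trr depletion, 5 members (GstD7, GstD9, GstD10, GstE6 and GstE10) exceeded wild type by at least 1, against 3.3%, and GstD4 fell short, 1 of 30 against 2.34%. With 1 library per group the difference between genotypes in stage change could not be tested, and the Delta pattern rests on the 2 Cmi depletion libraries. With either one left out, the stage estimate comes from the other genotypes alone, so members newly called in those fits are not given. The call of GstD7 was lost in them. Without the clear gut library of Cmi depletion, GstD1 had a log2 change of -0.66 and GstD2 one of -2.67. These values leave Cmi depletion out and are no check of the Delta pattern.

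The stage calls on the family did not change with scaling. Median-ratio scaling moved the median log2 change of all genes to -0.05, and quantile normalization moved it to 0.04. The whole table then split into 1340 genes higher and 1453 lower, or 2117 and 1414, against 2777 and 1275 as deposited. In all 3 versions the same 10 members fell and the same 2 rose. Without either wild-type library, however, no member and no gene of the table was called for stage by limma, while 2 members were higher and 9 lower at an unadjusted p under 0.05.

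Markers of several tissues moved with stage. The summed RPKM of 12 midgut markers was 3217 to 4142 at clear gut and 27722 to 31494 at blue gut, and 11 of 12 fell. That of 7 muscle markers was 99.5 to 500.5 against 1671 to 2236, and all 6 tested fell. That of 6 fat body markers was 28317 to 35758 against 46183 to 55011, and 4 fell and 1 rose. That of 6 Malpighian tubule markers was 27.1 to 45.2 against 56.1 to 95.3, and 3 of 5 tested fell and 1 rose. The summed RPKM of each of these 4 lists was thus lower at clear gut in every genotype. Blood cell markers summed to 19.6 to 181 RPKM at clear gut against 116 to 503 RPKM at blue gut, with overlapping groups, but were also lower at clear gut in every genotype, and 3 of 5 fell and 1 rose. Epidermis and cuticle markers (2075 to 3311 against 1953 to 4872 RPKM) and salivary gland markers (2434 to 16874 against 5401 to 21540 RPKM) overlapped as well. Of all these markers, only the muscle gene up was at 0 in any library. In whole larvae, fewer cells of a type and less RNA per cell cannot be told apart, and the part of these tissues in the GST differences was not tested.

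Genes that supply or use glutathione were set beside the family. Of 16 tested genes of glutathione synthesis and use, 7 fell at clear gut and 1 rose, with a median log2 change of -0.24, where 11.1% of all genes fell and 24.2% rose and their median was 0.15. Gclc and Gclm, the catalytic and modifier subunits of glutamate-cysteine ligase, which starts glutathione synthesis, fell by 1.13 (SE 0.25, limma adjusted p = 0.0285) and 1.05 (SE 0.19, limma adjusted p = 0.0168) on the log2 scale. Gclc measured 15.4, 18.3 and 21.2 RPKM at clear gut in Cmi depletion, in the library labelled Trr depletion and in wild type, against 50.2, 46.6 and 29.3 RPKM at blue gut. Mgstl, a membrane-bound glutathione transferase outside the 6 classes, fell by 1.38 (SE 0.15, limma adjusted p = 0.00597). It measured 24.0, 26.8 and 32.9 RPKM at clear gut, against 72.3, 56.4 and 98.6 RPKM at blue gut. The gene that rose was fax, a GST-like protein of axon development, with 479, 331 and 474 RPKM against 106, 88.2 and 77.3 RPKM. CG32495, Gs1l, CG17636 and CG6852 fell by 1.03, 0.63, 2.39 and 0.69.

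Of 19 tested antioxidant enzymes, 2 fell and none rose at clear gut, with a median log2 change of -0.17. The number that fell is near the 11.1% of all genes. Men, a malic enzyme that makes NADPH, fell by 1.89 (SE 0.16, limma adjusted p = 0.00406), and the peroxiredoxin Jafrac1 fell by 0.64 (SE 0.11, limma adjusted p = 0.0139). Of 12 regulators of detoxification, 3 rose and none fell, which is near the 24.2% of all genes that rose. They were Keap1, the inhibitor of CncC (log2 change 0.69), and ss and tgo (0.71 and 0.85), the Drosophila counterparts of the aryl hydrocarbon receptor and its partner. Median-ratio scaling and quantile normalization each called 2 regulators higher, where 11.7% and 18.5% of all genes rose under these scalings.

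In the other large detoxification families more genes fell than rose. These families stand against 11.1% of all genes that fell and 24.2% that rose. Of 65 tested cytochrome P450 genes, 40 fell and 5 rose at clear gut, with a median log2 change of -1.17, and Cyp4d8 and Cyp6a23 lay lowest (-3.74 and -3.37). Of 10 tested Ugt genes, which encode glycosyltransferases, 5 fell and 1 rose, with a median of -0.91, Ugt35a being lowest (-2.996) and Ugt86Di highest (0.74). Of 6 tested genes of epoxide hydrolysis and juvenile hormone breakdown, 4 fell and 1 rose. The epoxide hydrolase Jheh3 fell by 3.25 (SE 0.26, limma adjusted p = 0.00362), with 9.88, 21.1 and 15.6 RPKM at clear gut against 153, 130 and 169 RPKM at blue gut. Their medians lay below that of the tested GST genes, and the difference between lists was not tested.

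Cmi depletion was compared with wild type across both stages. Since the wild-type stock and its driver status are not given, depletion and a difference of stock cannot be told apart here. The same holds for the libraries labelled Trr depletion against wild type. Of 30 tested members, 1 fell (GstE3) and none rose, against 0.0174% of all genes that fell and 0.0872% that rose. At an unadjusted p under 0.05, 6 members were lower and 2 higher, where 6.81% of all genes passed. The median log2 difference of the tested members was -0.07, against 0.13 over all genes.

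GstE3 (gene 37108, a single exon on 2R, 18400713 to 18401467, plus strand) measured 15.2 RPKM in Cmi depletion and 78.4 RPKM in wild type at clear gut, a ratio of 0.194 (0.170 to 0.220). For blue gut the values were 51.3 RPKM in Cmi depletion and 221 RPKM in wild type, which gives 0.232 (0.216 to 0.249). Its log2 difference was -2.19 (SE 0.13, limma adjusted p = 0.0360). The ratio was thus similar at both stages, but the call sits near the threshold. It was lost with no filter on low values, with median-ratio scaling, with quantile normalization, among whole-read genes only, and without any 1 of the wild-type libraries or of those labelled Trr depletion, where the adjusted p ran from 0.0501 to 0.65. It was kept at limma adjusted p of 0.0306 and 0.0432 with a pseudocount of 0.1 and with eBayes without trend and robust. Without the blue gut or the clear gut library of Cmi depletion, the log2 difference was -2.28 and -2.10. There 1 library stands for Cmi depletion, so its spread cannot enter the error and these fits are no check of the call.

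GstE7, in the same array, was also lower in Cmi depletion but did not pass (log2 difference -1.82, SE 0.25, limma adjusted p = 0.172). It measured 2.23 RPKM in Cmi depletion and 14.3 RPKM in wild type at clear gut, and 40.4 and 109 RPKM at blue gut. Ratios were 0.156 (0.111 to 0.215) and 0.371 (0.341 to 0.404). On log2(RPKM + 1), GstE3 and GstE7 were the members at least 2-fold lower at both stages, 2 of 30 against 1.06% of all genes, and no member was 2-fold higher at both, against 0.436%. GstE11 was lower as well, with ratios of 0.669 (0.601 to 0.744) at clear gut and 0.581 (0.515 to 0.656) at blue gut and a limma adjusted p of 0.379. GstT3 was higher, with ratios of 1.58 (1.40 to 1.78) and 1.49 (1.31 to 1.71) and a limma adjusted p of 0.542. With either Cmi depletion library left out, the comparison rests on the remaining one, and more genes of the whole table were called than in the main fit. Calls on members from those fits are therefore not given.

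Within single stages, further members passed the same 2-fold rule on log2(RPKM + 1). At clear gut, GstD10, GstD2 and GstD4 were at least 2-fold higher in Cmi depletion than in wild type, 3 of 30 against 1.38% of all genes. GstD10 measured 24.5 RPKM in Cmi depletion and 4.19 RPKM in wild type at clear gut, a ratio of 5.85 (4.66 to 7.41), but 17.2 and 31.4 RPKM at blue gut, where the ratio was 0.546 (0.478 to 0.623). At clear gut GstE3, GstE7 and GstT4 were at least 2-fold lower, 3 of 30 against 4.26% of all genes. At blue gut GstD2, GstD9, GstE3 and GstE7 were at least 2-fold lower on that scale, 4 of 30 against 2.19%, and no member was 2-fold higher, against 1.86%. GstD2 was therefore lower than wild type at blue gut (ratio 0.429, 0.315 to 0.580) and higher at clear gut (ratio 4.74, 2.37 to 10.5).

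**Figure D4:**
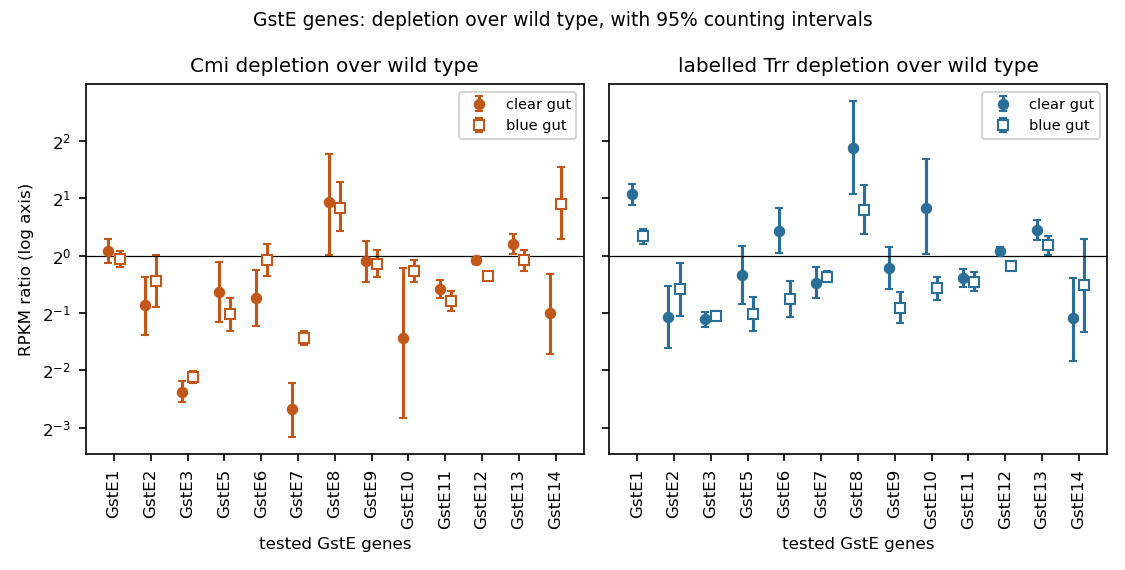
RPKM ratio to wild type (log axis) of the 13 tested GstE genes in Cmi depletion (left) and in the libraries labelled Trr depletion (right), at clear gut (filled) and blue gut (open), with 95% counting intervals. GstE3 lies below 1 in all 4 comparisons, at 0.194 and 0.232 on the left and 0.463 and 0.484 on the right, and GstE8 lies above 1 in all 4.

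The libraries labelled Trr depletion were compared with wild type in the same fit. No member passed the limma test in either direction, where 0.0523% of all genes rose and 0% fell. At an unadjusted p under 0.05, 3 members were higher and 5 lower, where 6.88% of all genes passed. The median log2 difference of the tested members was -0.15, against 0.15 over all genes. This comparison and that of Cmi depletion share both wild-type libraries, so their values are given side by side.

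GstE3 again had the lowest log2 difference, -1.07 (SE 0.13, limma adjusted p = 0.209). It measured 36.3 RPKM in the library labelled Trr depletion and 78.4 RPKM in wild type at clear gut, and 107 and 221 RPKM at blue gut, ratios of 0.463 (0.421 to 0.507) and 0.484 (0.458 to 0.512). On log2(RPKM + 1) it was the 1 member of 30 at least 2-fold lower at both stages, against 0.436% of all genes, and no member was 2-fold higher at both, against 0.619%. With either Cmi depletion library left out, the error comes from the libraries labelled Trr depletion and wild type alone, so calls from those fits are not given.

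GstE8 was higher in the libraries labelled Trr depletion, with ratios of 3.67 (2.11 to 6.45) at clear gut and 1.73 (1.30 to 2.35) at blue gut. Its recovered reads were not whole, however, and it did not pass (limma adjusted p = 0.577). GstT3 had ratios of 1.85 (1.65 to 2.09) and 1.38 (1.21 to 1.58) and did not pass either (limma adjusted p = 0.577). On log2(RPKM + 1), GstE1 and GstE8 were at least 2-fold higher at clear gut, 2 of 30 against 2.4% of all genes, and GstE3 was 2-fold lower, 1 of 30 against 1.27%. At blue gut GstD7, GstD9, GstD10 and GstE3 were at least 2-fold lower on that scale, 4 of 30 against 2.17%, and no member was 2-fold higher, against 1.66%. GstD9 had 0.396 (0.344 to 0.454) and GstD10 0.439 (0.380 to 0.506) times the wild-type level there. At clear gut their ratios were 0.955 (0.783 to 1.16) and 1.14 (0.845 to 1.53), intervals that include the wild-type level.

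Set directly against Cmi depletion, the libraries labelled Trr depletion gave no limma call among the members or in the whole table, and 3 members were higher at an unadjusted p under 0.05, where 4.29% of all genes passed. These were GstE3, GstE7 and GstE1, with log2 differences of 1.13, 1.42 and 0.67 (limma adjusted p = 0.379, 0.642 and 0.988). GstE3 measured 36.3 RPKM in the library labelled Trr depletion and 15.2 RPKM in Cmi depletion at clear gut, and 107 and 51.3 RPKM at blue gut. GstE7 measured 10.3 and 2.23 RPKM at clear gut, and 84.1 and 40.4 RPKM at blue gut. With the blue gut library of Cmi depletion left out, this comparison rests on the clear gut library of Cmi depletion alone, so calls from that fit are not given. In GstE3 and GstE7 the library labelled Trr depletion lay between Cmi depletion and wild type at each stage.

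Marker sums also differed between genotypes. Salivary gland markers summed to 2434 RPKM in Cmi depletion, 13292 RPKM in the library labelled Trr depletion and 16874 RPKM in wild type at clear gut, and to 5401, 8683 and 21540 RPKM at blue gut. Blood cell markers summed to 19.6, 27.2 and 181 RPKM at clear gut and to 192, 116 and 503 RPKM at blue gut. Midgut markers summed to 3217, 4142 and 3275 RPKM at clear gut and to 31494, 27722 and 28862 RPKM at blue gut, a much smaller spread. Epidermis and cuticle markers, from the tissue in which the driver is active, summed to 2075, 2505 and 3311 RPKM at clear gut and to 1953, 4872 and 4141 RPKM at blue gut. Muscle markers summed to 99.5, 500.5 and 275 RPKM at clear gut and to 2236, 1671 and 2103 RPKM at blue gut. The part of these tissues in the GstE3 and GstE7 values was not tested.

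Between genotypes few of the 11467 genes tested were called, 10 higher and 2 lower for Cmi depletion, and 6 higher for the libraries labelled Trr depletion. None of 16 tested genes of glutathione synthesis and use, of 12 regulators, of 6 genes of epoxide hydrolysis and juvenile hormone breakdown or of 10 Ugt genes was called in either depletion, and the unadjusted p was under 0.05 for 0, 0, 2 and 0 of them in Cmi depletion and for 1, 0, 0 and 2 in the libraries labelled Trr depletion, where 6.81% and 6.88% of all genes passed. Of 19 antioxidant enzymes 1 was called in each comparison, Pgd, a pentose phosphate enzyme that makes NADPH. Pgd had 375, 443 and 0 reads at clear gut in Cmi depletion, in the library labelled Trr depletion and in wild type. At blue gut it had 411, 468 and 1 reads. Its partner enzyme Zw measured 14.2 to 19.5 RPKM in the depletion libraries and 17.9 to 21.2 RPKM in wild type. Of 65 cytochrome P450 genes 1 was called in each comparison, Cyp12a4, which was higher.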

How the data were processed

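RNA of pooled whole larvae was selected with oligo dT, fragmented and sequenced on an Illumina HiSeq, per the labels' protocols. These say that reads were aligned with SOAPaligner/SOAP2, while Bowtie and the build dm6 are named in the submitters' processing notes. The counting tool and its annotation are not stated there. The authors deposited 1 table of RPKM, with a length in bases for each of 15741 entries. Read counts were recovered as RPKM times length at the depth where most values become whole. Within 0.1 of a read, 85.3% to 86.2% of values were whole and 99.4% to 100.0% were whole or a whole read plus 0.5. This gave 25.0, 23.9 and 24.2 M reads on genes for Cmi depletion, the library labelled Trr depletion and wild type at clear gut, and 23.6, 23.3 and 23.1 M at blue gut.

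The tests used limma 3.58.1 with statmod 1.5.0 in R 4.3.3 (eBayes with trend and robust) on log2(RPKM + 1), for entries with a mean of at least 1 RPKM. Genotype and stage were additive terms, which left 2 residual degrees of freedom, and 4 comparisons were made. Ratios between 2 libraries have 95% intervals from the exact binomial (Clopper-Pearson) bounds on how their reads divide. The floor of a library with 0 reads is 3 reads. Both describe counting error alone. Reads copied by PCR are not independent molecules, so the intervals may be too narrow even for that.

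All 35 members were found in the reference, which gave coordinates in Release 6 (dm6). Promoter and protein sequences were not used here. The members, gene lists and tests were chosen with earlier results of these data known. All members are described by class, and given in full were those that limma called and the highest of each class. The lists were resolved through gene identifiers where the table uses another symbol. Alternatives were another pseudocount (0.1 RPKM), no filter, median-ratio scaling, quantile normalization, eBayes without trend and robust, genes with whole reads only, and each library left out in turn.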

Additional observations from a re-analysis of the deposited data

Results flagged for a closer look

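Results are given here where the stage difference lay above 1 in a depletion and below 1 in wild type, or the reverse, with both counting intervals clear of 1. The share of all genes that meet this rule was not counted. By direction alone, 7 of 30 tested members and 21.6% of all genes were higher at clear gut in Cmi depletion and lower in wild type. There is 1 library in each group, so the difference between genotypes was not tested. A comparison of replicates within a group could not be made.

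In Cmi depletion against wild type, 4 Delta genes met this rule on RPKM as deposited. With median-ratio scaling the interval of GstD10 in Cmi depletion would include 1, so GstD10 would not meet it. The ratio of clear gut to blue gut was 1.688 in Cmi depletion and 0.5845 in wild type for GstD1, 1.427 and 0.1333 for GstD10, 2.158 and 0.2781 for GstD9, and 3.64 and 0.4577 for GstD4. GstD1, GstD9 and GstD10 are neighbours on the minus strand at one end of the Delta array. In the libraries labelled Trr depletion these 4 genes were lower at clear gut, as in wild type.

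In the libraries labelled Trr depletion against wild type, 2 genes met it. GstD3 had ratios of 0.8677 and 1.606, and GstS1, whose recovered reads were not whole, had ratios of 0.8962 and 1.082. The GstS1 difference is small, and with median-ratio scaling both of its ratios were below 1 (0.801 and 0.961).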

How the results depend on the processing

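The 10 members that fell and the 2 that rose at clear gut were the same with a pseudocount of 0.1 RPKM, no filter, median-ratio scaling and quantile normalization. With eBayes without trend and robust 11 fell, GstD2 being added, and among whole-read genes only 9 fell, since GstE8 was not tested. Leaving out each library in turn gave 0 to 14 members lower and 0 to 2 higher at clear gut. The 0 in both cases came from leaving out either wild-type library, where limma called no gene of the whole table. The largest number came from leaving out either Cmi depletion library, which gives the same stage estimates both times. With either library labelled Trr depletion left out, 11 fell, GstE6 being added. In each such fit the lone library of a genotype is fitted exactly by its own term. The stage estimate and the error then come from the other genotypes alone.

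In Cmi depletion the 1 lower member, GstE3, became 0 with no filter (adjusted p = 0.0513), median-ratio scaling (0.0501), quantile normalization (0.0613) and whole-read genes only (0.0845). Leaving out each library gave 0 to 3 lower and 0 to 1 higher members in Cmi depletion, 0 to 1 lower in the libraries labelled Trr depletion, and 0 to 3 higher in these than in Cmi depletion. The other counts were 0 under every alternative run. Among the fits with a library left out, counts above 0 between genotypes came only from those without a Cmi depletion library. In those fits more genes of the whole table were called between genotypes as well, and the error comes from the other genotypes alone. These counts are therefore not particular to the family and are no check of the main fit. The causes were not tested, and each fit with a library left out also holds fewer libraries.

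No paired analysis was possible because each group has 1 library and the replicate number pairs nothing. Depth limits the members with few reads (GstD5, GstD6, GstD7, GstD8, GstD11 and GstE4), and the absence of replicates limits every comparison.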
